A study of Solanum lycopersicum and Solanum pimpinellifolium with 30 samples.

Results

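Landrace 3815 is 1 of 9 Andean tomato (Solanum lycopersicum) landraces whose ripe red fruit was profiled on Affymetrix tomato GeneChips. Its members were the 3 arrays titled with that number, of 30 arrays in all, and they were set against the equally weighted mean of the landraces 549, 557, 560, 571, 572, 3806, 3836 and 3842 (24 arrays, 3 per landrace). The wild relative LA1589 (Solanum pimpinellifolium, 3 arrays) took no part in this comparison. Per the labels, plants of every accession were grown in 1 field trial in Mendoza, Argentina, as 3 plots of 6 plants (18 plants per accession), with no treatment and with no allele or transgene named. Fruit was picked at the red stage, and the material was the pericarp, the fleshy fruit wall, after the outer skin, locule tissue and seeds had been taken off. Each landrace had 3 biological replicates. The labels do not say whether a replicate number stands for a field plot, and they give no ancestry, fruit type or age in days.

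Red ripening of tomato is driven by ethylene. During it chloroplasts turn into chromoplasts, so that transcripts of the photosynthetic apparatus decline while carotenoids build up, and enzymes such as polygalacturonase, pectin methylesterase, beta-galactosidases and mannanase act on the cell wall as the fruit softens. Small heat shock proteins and HSP90 chaperones hold other proteins in a soluble or active form, and several of them are also expressed in ripening fruit without heat stress.

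All values below are log2 signals after quantile normalisation between the 30 arrays. A difference of 1 is a 2-fold difference. A difference is 3815 minus the mean of the other 8 landraces, with its standard error (SE) from limma, a linear model fitted across all 10038 probe sets. A gene passed when its adjusted p (Benjamini-Hochberg over all 10038) was under 0.05. The lowest, median and highest values given for the other landraces are those of their 24 arrays. Signal on an array depends on the probes, so levels of different genes are not compared. In whole tissue, fewer cells of a type and less RNA per cell cannot be told apart.

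Array 3815 replicate 1 stood apart from the other 2 arrays of its landrace. Replicates 2 and 3 correlated at 0.984 with each other, whereas replicate 1 correlated with them at 0.965 and 0.970 and was nearest to an array of landrace 3842, at 0.979. It was not alone in this, since 549 replicate 1, 549 replicate 2 and 571 replicate 2 also had their nearest array in another landrace. In 733 probe sets replicate 1 lay more than 1 log2 unit from the mean of the other 2 arrays of 3815. The counts were 391 for replicate 2 and 253 for replicate 3. Over the other landrace arrays such counts ran from 35 for 3842 replicate 3 to 2018 for 557 replicate 1. They were above 733 in each array of 557 and in 572 replicate 1, and lower in all the rest. Deposited values of the 18 spiked control probe sets averaged 8.65, 9.40 and 9.52 in replicates 1, 2 and 3 of 3815. Over the other landrace arrays these averages ran from 8.06 for 3842 replicate 1 to 10.61 for 557 replicate 1. In 3815, 72.8%, 73.1% and 67.1% of the probe sets of replicates 1, 2 and 3 lay above background. Whether the stage of the fruit, its handling or the label of replicate 1 differed was not tested. Results on named genes below are therefore given with all 3 arrays and without replicate 1. Replicate 1 was picked out from these same values, for its distance from replicates 2 and 3. Leaving it out thus narrows the spread within 3815, and adjusted p without it are no independent support.

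**Figure D1:**
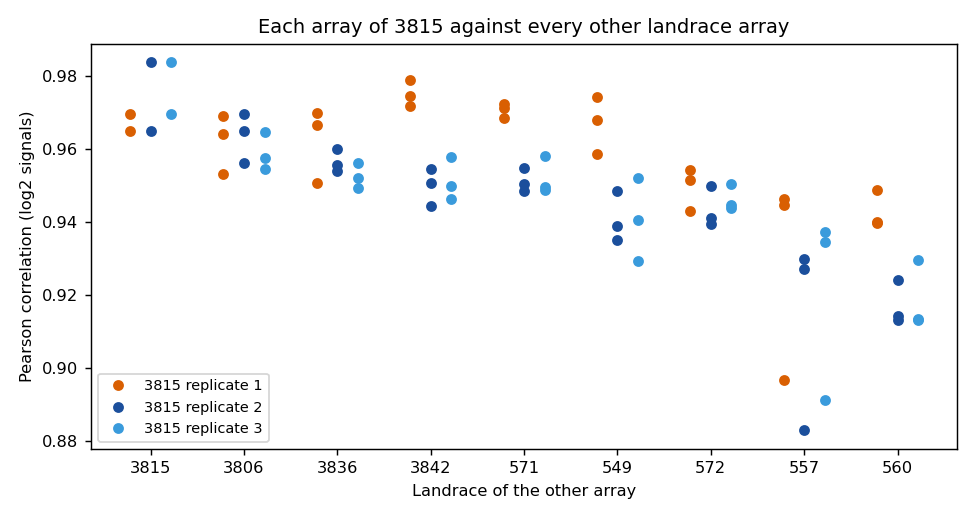
Pearson correlation of log2 signals over the tested probe sets between each array of 3815 (colour) and every other landrace array (x axis, by landrace; in the first column, the other 2 arrays of 3815). Replicates 2 and 3 were nearest to each other at 0.984, and replicate 1 was nearest to an array of 3842 at 0.979.

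Between 3815 and the mean of the other 8, 833 of 10038 probe sets passed (8.3%), 460 of them higher (4.58%) and 373 lower (3.72%) in 3815. At 2-fold or more, 154 were higher (1.53%) and 177 lower (1.76%). Without replicate 1, 1068 passed (10.6%), 593 higher (5.91%) and 475 lower (4.73%), and 682 (6.79%) passed in the same direction both ways. Leaving out replicate 2 left 211, and leaving out replicate 3 left 186. Among the probe sets that passed, the median difference of the higher ones was 0.49, 1.01 and 0.98 in replicates 1, 2 and 3, and that of the lower ones was -0.59, -1.11 and -1.14. Replicate 1 thus shared the directions but lay nearer to the other landraces. These medians come from the same arrays that selected the probe sets. The p-values behind all these counts rest on the spread within landraces, not on the spread between them.

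Of the 8 landraces, 3806 was closest to 3815 and 560 farthest. Against 3806, 201 probe sets passed (2%), and the landrace means correlated at 0.978. Against 3836 there were 376 (3.75%), against 571 there were 501 (4.99%), and against 3842 there were 512 (5.1%). The count was 675 (6.72%) against 549 and 736 (7.33%) against 572. Landraces 557 with 1700 (16.9%) and 560 with 2262 (22.5%) stood farthest off, and the correlation with 560 was 0.941. In the arrays of 557 only 40.2%, 52.2% and 53.1% of the probe sets lay above background, against 67.1% to 73.1% in 3815. The part of this in the count for 557 was not tested. These 8 comparisons share the 3 arrays of 3815.

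**Figure D2:**
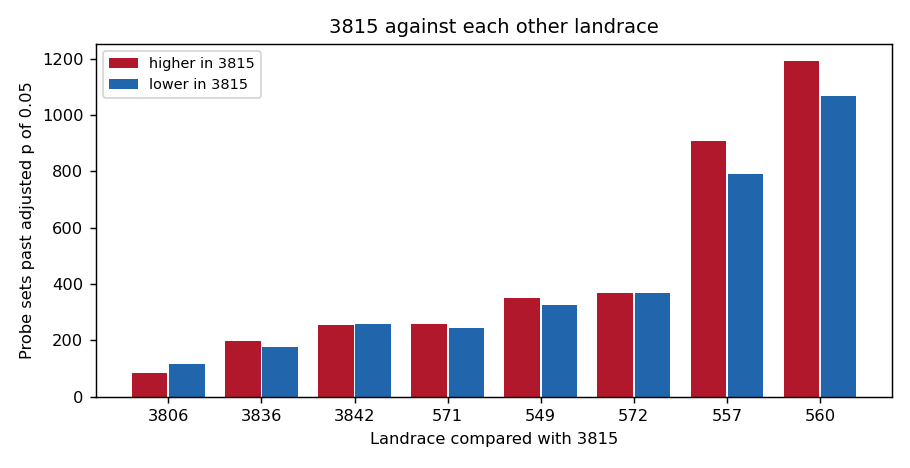
Number of probe sets past an adjusted p of 0.05 (y axis) in 3815 against each other landrace (x axis), split into higher (red) and lower (blue) in 3815. Counts run from 201 in all against 3806 to 2262 against 560.

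Of 14 gene lists, photosynthesis had the largest shift. Of 9 genes measured, 5 were lower in 3815 and none higher, and all 9 differences were below 0, with a median of -1.24 against -0.01 over all tested probe sets. The share that was lower was 3.72% over all probe sets and 4.7% over the genes with a descriptive name. In 6 of the 9 the landrace mean of 3815 was the lowest of the 9 landraces, which held for 9.9% of all probe sets. The members that passed were PETE, PSBO, PSBR, psaD and CAB4, which serve electron transport, water oxidation, both photosystems and light harvesting.

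PETE encodes plastocyanin, the copper protein that carries electrons to photosystem I (chromosome 4, 67709504 to 67710340 in the SLM_r2.1 assembly). It read 5.61, 1.96 and 0.89 in the 3 arrays of 3815, against 0.72, 5.96 and 8.50 as the lowest, median and highest of the other landraces. Replicate 1 sat close to that median, while the other 2 arrays were below all but 1 of the 24, an array of 3806. That landrace, the closest to 3815, had a mean of 3.09 against 2.82 in 3815, and PETE passed in 4 of the 8 single contrasts. The difference was -3.08 ± 0.69, or 8.47-fold lower (adjusted p = 0.00707), and without replicate 1 it was -4.48 (adjusted p = 9.08e-05).

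PSBO, the protein that stabilises the manganese cluster of photosystem II (chromosome 2, 52734388 to 52736629), read 5.94, 2.32 and 2.58 in 3815. The other landraces ran from 4.30 through a median of 6.28 to 7.82. Replicates 2 and 3 were below all 24 arrays and replicate 1 was within them. PSBO was 5.84-fold lower in 3815, a difference of -2.55 ± 0.50 (adjusted p = 0.00311), and without replicate 1 the difference was -3.71 (adjusted p = 6.52e-06).

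PSBR, a small subunit of photosystem II (chromosome 7, 70248597 to 70250270), was the brightest probe set of the list, at 8.90, 7.06 and 7.08 in 3815 against 7.74, 8.81 and 10.16 elsewhere. Here too replicates 2 and 3 lay below every other array and replicate 1 did not. Its difference was -1.24 ± 0.25 (adjusted p = 0.00408), and -1.85 without replicate 1 (adjusted p = 4.18e-06).

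The photosystem I subunit psaD differed from these in that all 3 arrays of 3815 were low. It read 2.74, 2.14 and 1.49 against 2.1, 3.85 and 5.63, with overlap at the low end of the other landraces, and its difference was -1.72 ± 0.34 (adjusted p = 0.00306; without replicate 1, -2.03 and 0.00206). CAB4, a chlorophyll a/b-binding protein of the antenna, read 1.76, 0.85 and 1.13 against 0.48, 2.35 and 4.19 and differed by -1.08 ± 0.30 (adjusted p = 0.0268; without replicate 1, -1.33 and 0.0172). The groups overlapped: CAB4 averaged 1.08 in 572, 1.31 in 3836 and 1.32 in 3806, against 1.25 in 3815. Its adjusted p was 0.105 with landrace 549 left out and 0.0532 with 560 left out.

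Of the 4 that did not pass, the oxygen-evolving protein PSBP had a difference of -1.37 ± 0.54 (adjusted p = 0.13), and it passed without replicate 1, at -2.08 (adjusted p = 0.0275). PsbQ, from the same complex, differed by -1.01 (adjusted p = 0.147; 0.139 without replicate 1) and CAB6A by -0.75 (adjusted p = 0.353; 0.437 without it). CAB5 was at background throughout, and no direction can be read from it. The count of 5 changed with the arrays used: without replicate 2 only psaD passed, PETE, PSBO, PSBR and CAB4 having adjusted p of 0.106, 0.0865, 0.105 and 0.25, and without replicate 3 none passed (adjusted p 0.0783 for psaD to 0.183 for CAB4). The differences stayed below 0 in these settings, at -2.65 for PETE and -1.90 for PSBO without replicate 2.

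**Figure D3:**
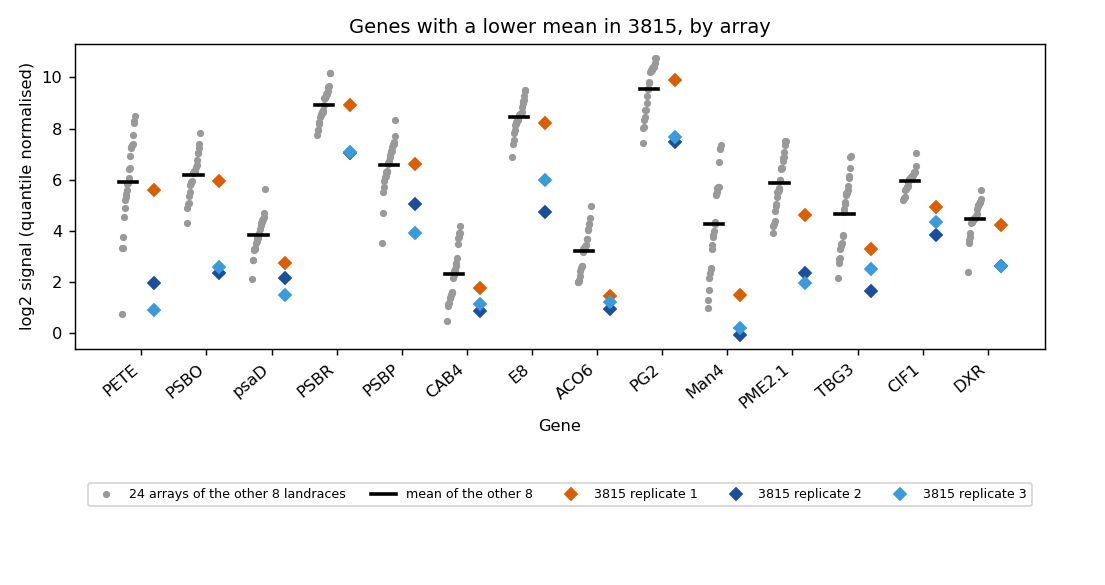
Log2 signal (y axis) of 14 genes with a lower mean in 3815 (x axis). Grey points are the 24 arrays of the other 8 landraces, the black bar is the mean of the other 8, and diamonds are the arrays of 3815. Replicate 1 lay above replicates 2 and 3 in all 14; PSBP and PG2 did not pass with all 3 arrays (adjusted p = 0.13 and 0.132).

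Of 52 cell wall genes measured, 3 were higher (TBG7, XYL2, Cel3) and 3 lower (Man4, PME2.1, TBG3), with a median difference of -0.06. These counts are near the shares over all probe sets, 4.58% higher and 3.72% lower, and are no result about the list. Without replicate 1 they were 3 and 5. The lower genes act on mannan, pectin and galactan side chains.

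Man4 encodes an endo-beta-mannanase (chromosome 1, 3127810 to 3130865). Its arrays of 3815 read 1.49, -0.08 and 0.19, of which 2 were at background, against 0.96, 4.11 and 7.35 in the other landraces. Replicates 2 and 3 lay below all 24 arrays and replicate 1 at their low end. Landrace 3836 was also low, with a Man4 mean of 1.31 against 0.53 in 3815, and Man4 passed in 5 of the 8 single contrasts. Since 3815 was at background, the fold is a bound, at least 10.7-fold lower (difference -3.73 ± 0.74, adjusted p = 0.0034; without replicate 1, -4.20 and adjusted p = 0.00393). Its probe set is of a type that can match more than 1 transcript, so related mannanases may share this signal.

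PME2.1, a pectin methylesterase (chromosome 7, 68885752 to 68888084), read 4.61, 2.33 and 1.93 against 3.92, 5.83 and 7.53. Replicates 2 and 3 were below all 24 arrays, and replicate 1 was at the low end of them. It was 7.43-fold lower in 3815 (difference -2.89 ± 0.39, adjusted p = 9.56e-05; without replicate 1, -3.72 and 1.14e-06) and lower in 7 of the 8 single contrasts. The beta-galactosidase TBG3 read 3.28, 1.65 and 2.49 against 2.14, 4.95 and 6.93, a difference of -2.19 ± 0.50 (adjusted p = 0.00788; without replicate 1, -2.59 and 0.00597), with the mean of 3836 almost as low at 2.60.

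A second beta-galactosidase, TBG7, had the opposite direction. It read 2.2, 1.76 and 3.88 in 3815, while the other landraces had a median of 0.50 and a highest array at 2.47, and 6 of them were not above background. The bound on TBG7 was at least 3.13-fold (difference 1.98 ± 0.34, adjusted p = 0.00101; without replicate 1, 2.18 and 0.00125). Cel3, an endoglucanase, read 5.73, 6.64 and 5.86 against 3.27, 4.94 and 6.10, and was 2.2-fold higher (difference 1.14 ± 0.24, adjusted p = 0.0042; without replicate 1, 1.31 and 0.00406). Landrace 3806 had a Cel3 mean of 5.83 against 6.07 in 3815, and Cel3 passed in 5 of the 8 single contrasts. XYL2, a beta-xylosidase, read 2.95, 3.33 and 3.26 against 0.13, 1.26 and 3.95, a difference of 1.54 ± 0.42 (adjusted p = 0.0252; without replicate 1, 1.65 and 0.0421). In XYL2 landrace 557 had the higher mean, 3.24, and the adjusted p was 0.064, 0.0511 and 0.0561 with 3836, 3842 and 571 left out.

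TBG7 and PME2.1 passed without each array of 3815 in turn. Without replicate 2 the adjusted p was 0.0524 for Man4, 0.129 for TBG3, 0.164 for XYL2 and 0.106 for Cel3, and without replicate 3 it was 0.0703 for TBG3 and 0.16 for XYL2. Polygalacturonase, the major pectin-degrading enzyme of ripe tomato, did not pass: PG2 read 9.88, 7.47 and 7.66 against 7.43, 9.79 and 10.77, with an adjusted p of 0.132. Without replicate 1 it did, at -2.0 (adjusted p = 0.0143), and the pectinesterase PE1 likewise, at -1.07 (adjusted p = 0.0201).

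Of 47 ethylene and ripening genes, 2 were lower (E8, ACO6) and 2 higher (EIL2, EIL1), with a median difference of 0.03. These counts too are near the shares over all probe sets, 3.72% lower and 4.58% higher, and without replicate 1 they were 3 and 1. E8 is an ethylene-induced dioxygenase-like gene of ripening fruit (chromosome 3, 54382264 to 54383995). It read 8.22, 4.75 and 5.99 in 3815 against 6.88, 8.52 and 9.50 elsewhere. Replicates 2 and 3 were below every other landrace array and replicate 1 was among them. The difference was -2.13 ± 0.45, 4.39-fold lower (adjusted p = 0.00459), and -3.08 without replicate 1 (adjusted p = 3.22e-05). Without replicate 2 it was -1.35 (adjusted p = 0.136) and without replicate 3 it was -1.97 (adjusted p = 0.0694).

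ACO6, named as an ACC oxidase, the enzyme class that makes ethylene from its precursor, was low in all 3 arrays (chromosome 2, 47027750 to 47029861). It read 1.46, 0.95 and 1.22 against 1.98, 3.33 and 4.97, so the groups did not overlap. It was 4.02-fold lower (difference -2.01 ± 0.40, adjusted p = 0.00345; without replicate 1, -2.13 and 0.00707), with an adjusted p of 0.0503 when replicate 2 was left out. A second ACO6 probe set differed by -0.92 (adjusted p = 0.0332) and the third by -0.64 (adjusted p = 0.117). EIL2 and EIL1 encode EIN3-like factors, which act at the end of ethylene signalling. EIL2 read 3.80, 5.35 and 5.24 against 2.42, 3.65 and 4.87 (difference 1.11 ± 0.34, adjusted p = 0.043; without replicate 1, 1.61 and 0.00605), and its adjusted p was 0.358 without replicate 2 and 0.346 without replicate 3. Landrace 3806 had an EIL2 mean of 4.63 against 4.80 in 3815, and EIL2 passed in 2 of the 8 single contrasts. EIL1 differed by 0.63 ± 0.18 (adjusted p = 0.0286), and by 0.50 without replicate 1 (adjusted p = 0.157).

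Heat shock genes were the list with the largest shift upwards. All 9 measured differences were above 0, with a median of 0.88, and 2 of the 9 passed: MTSHP and HSC80. That of HSP21 was only 0.01 ± 0.61. Without replicate 1, 7 of the 9 differences were above 0 and 3 genes passed. Over all probe sets 4.58% were higher with all arrays and 5.91% without replicate 1. In 4 of the 9 the mean of 3815 was the highest of the 9 landraces, against 11.2% of all probe sets. Several of these ranks were near ties with the landraces most like 3815: HSP17.4 averaged 8.74 in 3815, 8.72 in 3836 and 8.67 in 3806, and Hsp90-1 averaged 7.07, 6.97 and 7.03. Landrace 3815 ranked 3 of the 9 in vis1, ER-SHSP and HSP17-6, 4 in HSP21 and 6 in CPN21, and 549 had a higher mean in each. The comparison mean holds landraces with low levels: HSP17.4 averaged 4.74 in 557 and 5.28 in 560, Hsp90-1 averaged 4.43 in 560, and vis1 averaged 4.11 in 572. By array the median over the list was 0.59, 1.43 and 0.47 in replicates 1, 2 and 3.

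MTSHP encodes a small heat shock protein of mitochondria (chromosome 8, 64622980 to 64624109). It read 7.78, 9.40 and 8.39 in 3815 against 3.24, 6.62 and 9.56 in the other landraces. The 3 arrays were all above the median of the others but within their range, and landrace 3806 had a mean of 8.31. The difference was 1.92 ± 0.56, 3.79-fold higher (adjusted p = 0.0345), and 2.30 without replicate 1 (adjusted p = 0.0304). MTSHP passed in 2 of the 8 single contrasts. The comparison mean holds 557 and 560, where it averaged 4.11 and 3.77, and its adjusted p was 0.0981 with 557 left out, 0.144 with 560 left out and 0.051 with 3842 left out.

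HSC80, a cytosolic HSP90 chaperone (chromosome 7, 69898068 to 69901272), varied less. It read 8.42, 9.05 and 9.01 against 6.75, 8.06 and 9.08, and was 1.77-fold higher, a difference of 0.83 ± 0.19 (adjusted p = 0.00776; without replicate 1, 1.03 and 0.00336). It was higher in 5 of the 8 single contrasts. Another HSP90 gene, Hsp90-1, read 6.15, 7.61 and 7.44 against 4.09, 6.26 and 7.54. Its difference was 0.88 ± 0.29 (adjusted p = 0.0655), and 1.34 without replicate 1 (adjusted p = 0.00683).

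The other small heat shock genes did not pass. HSP17.4 had a difference of 1.41 ± 0.52 (adjusted p = 0.101), vis1 of 1.15 ± 0.47 (adjusted p = 0.147), the endoplasmic reticulum form ER-SHSP of 0.98 ± 0.79 (adjusted p = 0.573) and HSP17-6 of 0.62 (adjusted p = 0.327). The chloroplast form HSP21 differed by 0.01 ± 0.61 (adjusted p = 0.998), and its arrays of 3815 spread from 6.0 to 8.59. The plastid co-chaperonin CPN21 differed by 0.13 (adjusted p = 0.8). Without replicate 1 these 6 did not pass either (adjusted p 0.134 to 0.941). Without replicate 2, MTSHP and HSC80 had adjusted p of 0.313 and 0.11, and without replicate 3 of 0.161 and 0.108, so that none of the list passed.

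**Figure D4:**
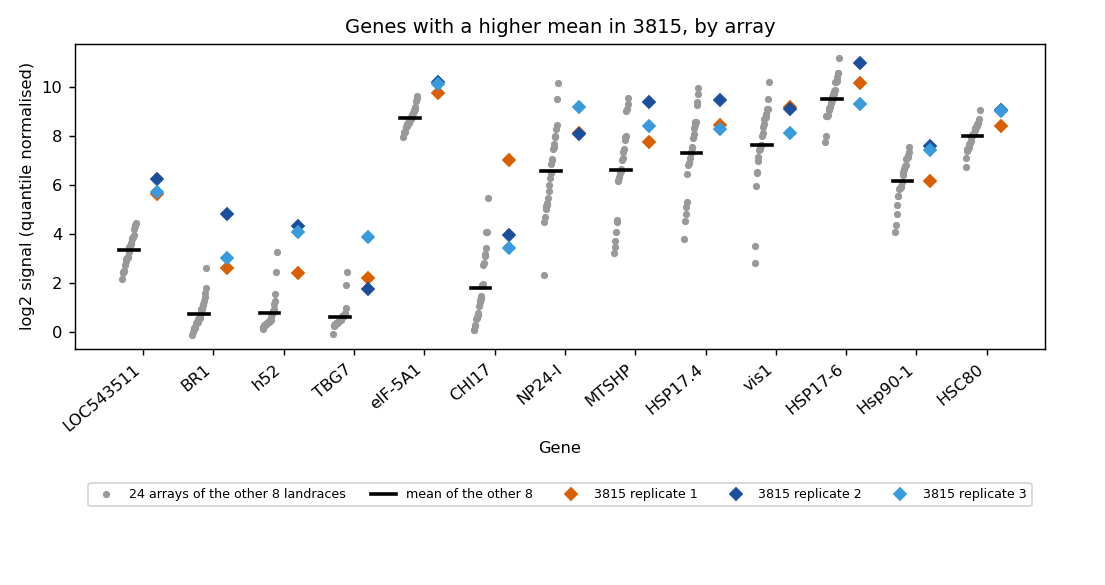
Log2 signal (y axis) of 13 genes with a higher mean in 3815 (x axis), with symbols as in the plot of genes with a lower mean. LOC543511 (its brightest probe set), BR1 and eIF-5A1 had all 3 arrays of 3815 above all 24 others; HSP17.4, vis1, HSP17-6 and Hsp90-1 did not pass (adjusted p = 0.101, 0.147, 0.327 and 0.0655).

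A smaller set of genes set 3815 apart in all 3 arrays. All 3 arrays lay above all 24 others in 43 probe sets (0.428%) and below them in 32 (0.319%). In all 8 single contrasts, 10 probe sets were higher (0.0996%) and 12 lower (0.12%), and without replicate 1 these counts were 42 and 35. Among the described genes, those carrying a gene name rather than a placeholder, the 3 arrays lay outside the other 24 in BR1, eIF-5A1, LHA2 and RCE1, above, and in ACO6 and CIF1, below.

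BR1 (chromosome 9, 69032217 to 69034307) read 2.63, 4.81 and 3.04 in 3815 against -0.11, 0.59 and 2.61 in the other landraces. It was at least 5.15-fold higher (difference 2.73 ± 0.40, adjusted p = 0.000175; without replicate 1, 3.16 and 1e-04), and passed against each of the 8. The homeodomain-leucine zipper gene h52 (chromosome 4, 62401947 to 62403902) read 2.42, 4.33 and 4.08 against 0.15, 0.44 and 3.28, 5 of those landraces being at background. Its fold was a bound of at least 5.71 (difference 2.84 ± 0.38, adjusted p = 8.5e-05; without replicate 1, 3.43 and 1.19e-05), and passed in 7 of the 8 contrasts.

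A bright and evenly measured gene was eIF-5A1, a translation factor (chromosome 3, 62144355 to 62146911). It read 9.77, 10.20 and 10.13 in 3815 against 7.98, 8.66 and 9.63, with no overlap. It was 2.47-fold higher, a difference of 1.30 ± 0.21 (adjusted p = 0.000624; without replicate 1, 1.43 and 0.000795). LHA2, a plasma membrane proton pump, differed by 1.05 ± 0.22 (adjusted p = 0.00437; 0.025 without replicate 1), and RCE1 by 0.79 ± 0.14 (adjusted p = 0.00139; 0.00545 without it). Another RCE1 probe set differed by 0.60 (adjusted p = 0.247).

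CIF1 encodes an invertase inhibitor, a protein that holds back the splitting of sucrose (chromosome 12, 68655390 to 68657115). It read 4.94, 3.84 and 4.35 in 3815 against 5.20, 6.04 and 7.06, so every array of 3815 was below every other. It was 2.97-fold lower, a difference of -1.57 ± 0.23 (adjusted p = 0.000199; without replicate 1, -1.85 and 8.22e-05), and lower in 7 of the 8 contrasts. CIP1, whose product is named for binding the light-signalling protein COP1, read 3.86, 2.84 and 2.99 against 3.03, 4.66 and 7.17 and was 3.64-fold lower (difference -1.86 ± 0.24, adjusted p = 4.5e-05; without replicate 1, -2.18 and 1.64e-05). Landrace 3806 had nearly the same CIP1 mean as 3815, at 3.47 against 3.23, and CIP1 was lower in 5 of the 8 contrasts. A second, dimmer CIP1 probe set differed by -0.40 and did not pass (adjusted p = 0.144).

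The placeholder locus LOC543511, a protein-coding gene with no description in the reference table (chromosome 4, 2489179 to 2491878), was chosen after its values were seen, because each of its 3 probe sets passed against each of the 8 landraces. The brightest probe set read 5.66, 6.25 and 5.73 in 3815, and the highest of the other landraces, 560, had a mean of 4.39. The next brightest read 5.23, 6.08 and 4.97 and was 8.29-fold higher (difference 3.05 ± 0.34, adjusted p = 6.13e-06). Like that of Man4, this probe set is of a type that can match more than 1 transcript. The brightest was 5.78-fold higher (adjusted p = 6.64e-05), and the dimmest at least 1.65-fold higher. All 3 probe sets lay above the 24 other arrays in each array of 3815, and all 3 passed without replicate 1 (adjusted p 2.74e-05 to 0.000207), but they are annotated to 1 gene and are not independent of each other.

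Most of the 22 probe sets that passed in all 8 contrasts had no gene name, and of these the 2 lower and 2 higher ones with the largest differences are described here. The lowest, with the largest difference of the 22 probe sets that passed in all 8 contrasts, read 2.25, 1.50 and 2.01 in 3815 against 3.07, 6.35 and 9.07 in the others, a difference of -4.36 ± 0.35 (adjusted p = 8.54e-08). Landraces 3806 and 3836 were the next lowest, with means of 3.77 and 4.23, and 560 was highest at 8.56. The other lower one also did not overlap the 24 arrays, at 3.11, 1.60 and 2.26 against a lowest other array of 3.97 (difference -2.91 ± 0.26, adjusted p = 2.85e-07). Of the higher ones, 1 was close to even across its arrays, at 5.58, 5.36 and 5.71 against a highest other array of 4.67 (difference 2.71 ± 0.31, adjusted p = 8.62e-06). The other higher one read 0.55 in replicate 1, among the other landraces, and 5.94 and 3.90 in replicates 2 and 3, above a highest other array of 2.14. It was at least 5.91-fold higher (adjusted p = 0.002), and without replicate 2 its adjusted p was 0.0609. Without replicate 1 the adjusted p of these 4 ran from 2.08e-07 to 8.85e-05.

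Of the 41 passing results named by the rule for named genes or as placeholder and unnamed probe sets, 14 passed without each array of 3815 in turn. They were h52, BR1, TBG7, eIF-5A1, AAT, CIF1, CIP1, PME2.1, the 3 probe sets of LOC543511 and 3 of the 4 unnamed probe sets. The AAT call rested on landrace 572: with 572 left out its difference was -0.17 (adjusted p = 0.635). Leaving out replicate 1 ended 3 of the 41 calls, replicate 2 ended 25 and replicate 3 ended 21.

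Among the 31 defence and wound genes 2 were higher, CHI17 and NP24-I, and none lower, with a median difference of -0.01. This is near the 4.58% higher over all probe sets, and without replicate 1 none passed. CHI17, a chitinase, read 7.01, 3.98 and 3.45 in 3815 against 0.08, 1.36 and 5.47. Its high value was that of replicate 1. The difference was 3.01 ± 0.76, 8.04-fold higher (adjusted p = 0.0161), but 1.91 without replicate 1 (adjusted p = 0.164), and its adjusted p was 0.055 without replicate 2. NP24-I, an osmotin-like protein, read 8.13, 8.07 and 9.17 against 2.33, 6.68 and 10.16, a difference of 1.86 ± 0.54 (adjusted p = 0.0341). Its adjusted p was 0.0539, 0.116 and 0.308 without replicates 1, 2 and 3, and landrace 571 had the higher mean, 9.38. It was 0.0828, 0.0526 and 0.0747 with landraces 3836, 549 and 560 left out.

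The described genes as a whole passed at 9.56% (63 of 659), 32 higher (4.86%) and 31 lower (4.7%), and without replicate 1 at 5.31% higher and 7.89% lower. Of 6 phenylpropanoid genes, chalcone synthase CHS2, the entry enzyme of flavonoids, was higher. It read 3.28, 2.76 and 0.44, so that replicate 3 was at the level of the other landraces (median 0.42), and it was at least 2.36-fold higher (adjusted p = 0.0127; 0.136, 0.174 without replicates 1 and 2). Of 15 organic acid and GABA genes, GABA-TP3, a transaminase that breaks down GABA, was higher. It read 4.79, 3.92 and 4.29 against 0.56, 2.93 and 4.50, a difference of 1.64 ± 0.37 (adjusted p = 0.00749; 0.0447 and 0.0641 without replicates 1 and 3).

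Of 25 sugar and starch genes, hexokinase hxk1 was higher and CIF1, described above, lower. The dim hxk1 was at least 1.53-fold higher (adjusted p = 0.0023; 0.000417, 0.0504 and 0.0558 without replicates 1, 2 and 3). Of 19 antioxidant genes, the glutathione peroxidase GPXle-2 was lower, by a difference of -0.49 ± 0.13 (adjusted p = 0.0175; 0.00761, 0.175 and 0.184 without replicates 1, 2 and 3). A second GPXle-2 probe set differed by -0.46 and did not pass (adjusted p = 0.131). None of the 4 sterol, 16 cell cycle or 14 abscisic acid and dehydration genes passed with all 3 arrays, and their median differences were 0.02, 0.05 and 0.00. Without replicate 1 the replication clamp gene PCNA (difference 1.15, adjusted p = 0.0269) and the stress factor gene DREB1 (difference 1.15, adjusted p = 0.0067) were higher.

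The 8 aroma genes gave 1 higher, AAT, and 1 lower, Fad7. Without replicate 1 they gave 1 higher and 3 lower, the additions being HPL (-1.76, adjusted p = 0.00511) and loxC (-2.0, adjusted p = 0.00528), both of the lipoxygenase route to volatiles. The shares over all probe sets were 4.58% higher and 3.72% lower with all arrays, and 5.91% and 4.73% without replicate 1. Among described genes 7.89% were lower without replicate 1. The alcohol acyltransferase AAT, which makes fruit esters, read 9.34, 9.18 and 8.87 in 3815, and the median of the other arrays was 9.25. Its difference of 0.90 ± 0.16 (adjusted p = 0.00125; without replicate 1, 0.80 and 0.00884) came from a comparison mean that includes landrace 572, where AAT averaged 0.74. Only against 572 did AAT pass, and 3815 ranked 7 of the 9 landraces. With 572 left out the difference was -0.17 (adjusted p = 0.635). Fad7, a plastid fatty acid desaturase, read 1.05, 0.91 and 0.76 against 0.45, 1.76 and 5.18 (difference -1.33 ± 0.34, adjusted p = 0.0164), with adjusted p of 0.0318, 0.106 and 0.142 without replicates 1, 2 and 3 and 0.0665 with landrace 560 left out. It averaged 0.91 in 3815, 0.74 in 3836 and 0.96 in 3806, and passed in 3 of the 8 single contrasts.

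Carotenoid genes showed how far the reading of 3815 depends on replicate 1. Of 18 measured, 1 was lower, DXR, an early enzyme of the plastid isoprenoid pathway, and the median difference was -0.27. DXR read 4.22, 2.63 and 2.60 against 2.36, 4.49 and 5.61, a difference of -1.31 ± 0.30 (adjusted p = 0.00826; 0.000345, 0.137 and 0.151 without replicates 1, 2 and 3). The median over the list was 0.38 in replicate 1 but -0.61 and -0.69 in replicates 2 and 3, and replicate 1 was above both in 16 of the 18 genes, against 3470 of all 10038 probe sets. Without replicate 1, 5 of the 18 were lower, the additions being the isoprenoid genes ISPE (-1.10, adjusted p = 0.00549) and HDS (-1.02, adjusted p = 0.0185), the desaturase gene ZDS (-0.82, adjusted p = 0.0103) and the oxidase gene PTOX (-0.62, adjusted p = 0.045). Lower calls rose in general without replicate 1, from 3.72% to 4.73% of all probe sets and from 4.7% to 7.89% of described genes. Phytoene synthase Psy1, which commits carbon to carotenoids, differed by 0.52 (adjusted p = 0.262) with all arrays and by 0.22 (adjusted p = 0.779) without replicate 1. The comparison mean includes 560, where Psy1 averaged 5.36, and 3815 ranked 5 of the 9 landraces with a mean of 9.26, below the median of the other arrays, 9.33.

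**Figure D5:**
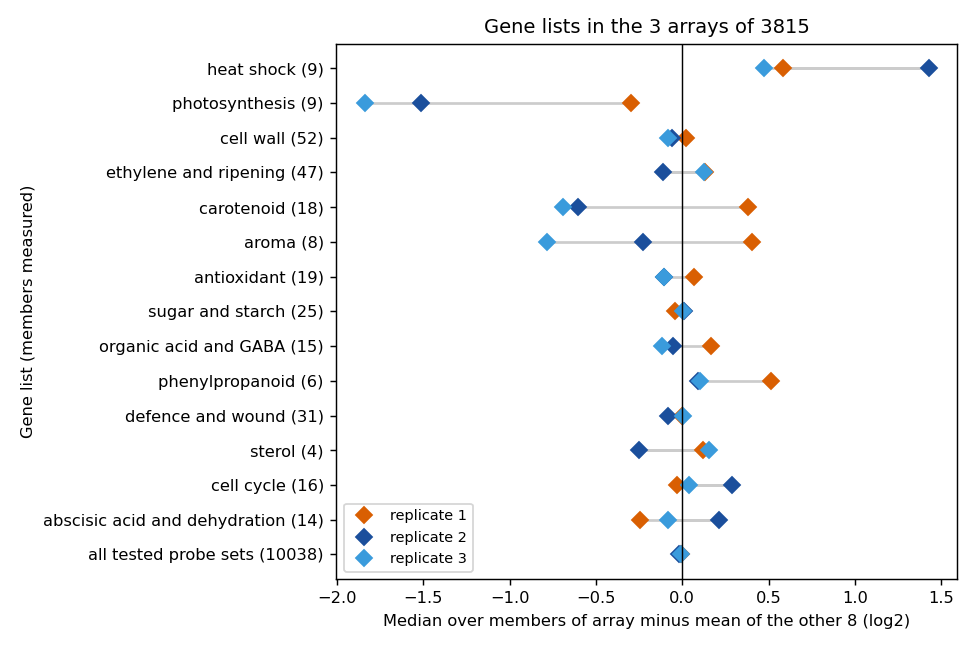
Median over the members of each gene list (y axis, members measured in brackets) of the array's log2 signal minus the mean of the other 8 landraces (x axis), for each array of 3815. Photosynthesis lies below 0 and heat shock above 0 in all 3 arrays, and carotenoid and aroma change sign between replicate 1 and the other 2. Cell wall, antioxidant, organic acid and GABA, and sugar and starch do so too, with medians between -0.12 and 0.17. So does cell cycle, at -0.03 in replicate 1 and 0.29 and 0.04 in replicates 2 and 3.

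Short marker lists for other tissues and for the state of the fruit were read beside these results. Of 2 seed genes none passed, and their level, the log2 of the summed linear signal of the list on an array, ran from 6.75 to 7.33 in 3815 and from 5.95 to 8.04 in the other landraces. TAS14, from this list, was at background in 2 of the 3 arrays of 3815. The remaining gene, LEA14, alone read 6.73, 6.93 and 7.32 in 3815 and so made up nearly all of that level. LEA14 averaged 6.32 in 572 to 7.86 in 3806, although seeds had been taken off there too, so this list gives no reading of seed. Of 3 epidermis genes, all lipid transfer proteins, none passed, and the levels were 1.82 to 2.31 against 1.75 to 4.26, with LE16, TSW12 and ltpg1 each at background in 2 of the 3 arrays of 3815. Of 4 ripe pericarp genes E8 was lower, and PE1 and PG2 as well without replicate 1, while the level of the list ran from 9.66 to 11.24 against 9.97 to 11.91. Psy1, the remaining gene of this list, had a difference above 0 and did not pass, at 0.52 (adjusted p = 0.262) and at 0.22 without replicate 1 (adjusted p = 0.779). Of 3 green tissue genes, CAB4 was lower, and the level was 2.18 to 2.63 against 2.11 to 5.13. The ripe pericarp and green tissue genes also belong to the ripening, cell wall, carotenoid and photosynthesis lists above, and LEA14 to the abscisic acid and dehydration list. The part of these genes in those results was not tested.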

How the data were processed

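Ripe pericarp RNA of 10 cultivars was hybridised as biotin-labelled cRNA, 1 sample per array. Each of the 30 arrays had 10209 probe sets, deposited by the authors on a log2 scale (-0.42 to 12.55). The authors' software, background correction and normalisation are not given in the sources used here, nor is the base of the logarithm, which was taken as 2 from the range and the spiked controls. Since array medians ran from 1.28 to 1.79, all arrays were quantile normalised together. The 171 control probe sets were left out (108 Affymetrix controls, 63 foreign reporters), and 10038 were tested.

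Each array's background was percentile 95 of its 63 reporter probe sets (0.37 to 2.41). A landrace was at background when at least 2 of its 3 arrays were, and a fold against such levels, raised to background, is given as "at least". For a higher gene this applied when 2 or more other landraces were at background. Arrays give no counts, and their number limits the precision.

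Platform annotation, which can be old, named 909 probe sets with 802 symbols, and 9129 were unnamed. Gene identifiers found 885 of the named ones in the RefSeq table of SLM_r2.1, which gives the positions, and 24 were not found. Placeholder symbols were replaced by a reference synonym where it had one, which left 659 described genes. A gene is represented by its probe set with the highest mean over the 30 arrays.

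With limma 3.58.1 (R 4.3.3, statmod 1.5.0) 1 mean per landrace was fitted to 27 arrays (18 residual degrees of freedom). Tests were two-sided, with a Benjamini-Hochberg threshold of 0.05 over all probe sets. The fit was tested on simulated data. Figures used Python 3.11.15 and matplotlib 3.10.9. The p-values rest on the spread between arrays of the same landrace, pooled over the 27 arrays, and not on the spread between landraces.

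The rule for named genes took, among described genes, the 12 highest and 12 lowest passing differences with all 3 arrays of 3815 on 1 side of the other mean, genes passing all 8 single contrasts, up to 3 passing members of each list by size with its non-passing member of highest level, and all heat shock and photosynthesis members (57 genes). Of unnamed probe sets it took at most 2 higher and 2 lower ones. Genes named because they passed only without replicate 1, EIL1, LHA2, RCE1 and LOC543511 were chosen after their values were seen. The members, the 14 gene lists and the 4 marker lists were chosen with earlier results of these data known. Alternatives were the deposited scale, median centring, a dim filter, an intensity trend, array weights, a replicate block, 1 mean per landrace, the spiked controls as covariate, LA1589 added, and each landrace and each array left out.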

Additional observations from a re-analysis of the deposited data

How the results depend on the processing

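The counts of 833 probe sets in all, 460 higher and 373 lower stayed within 1.5 times under the deposited scale, median centring, the dim filter, the intensity trend, the spiked controls as covariate, LA1589 in the comparison mean and each landrace left out (580 to 1011 in all). Leaving out each array in turn gave 186 to 1068 in all, 93 to 593 higher and 93 to 475 lower, and 748 to 989 in all when the array was not of 3815. It gave 0 to 3 heat shock genes higher and 0 to 6 photosynthesis genes lower. Over the arrays of 3815, it gave 16 to 77 probe sets that passed in all 8 contrasts, 5 to 42 higher and 11 to 35 lower. Array weights, which down-weight arrays far from their group, gave 1782 in all, 997 higher and 785 lower, 4 heat shock genes, and 65 in all 8 contrasts, 35 higher and 30 lower. With 1 mean per landrace, so that 3815 is 1 sample against 8, limma called 1 probe set, higher, and 0 lower (the unnamed one that read 0.55, 5.94 and 3.90 in 3815 and did not pass without replicate 2; adjusted p = 0.014). The next lowest was 0.0699, and 451 (4.49%) had an unadjusted p under 0.05, and 0 heat shock and 0 photosynthesis genes passed. The heat shock count was 4 with LA1589 added or with 3806 or 549 left out, and 1 with 3842, 557 or 560 left out. AAT reversed to -0.17 with landrace 572 left out. The causes of these changes were not tested beyond the samples each setting removes.

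Replicate numbers did not pair the arrays. Deviations from the landrace mean correlated at a median of -0.0064 over 108 same-numbered pairs of arrays (-0.281 to 0.363) and 0.004 over 216 others. With the replicate block 793 probe sets passed, 444 higher and 349 lower. Of the 41 named calls, 1 mean per landrace ended 40, and EIL2 also lost its call on the deposited scale, under median centring, under the block, with 3836, 560 or 571 left out, and without any of 14 single arrays of other landraces. NP24-I lost it with LA1589 added (adjusted p = 0.0993), and the report gives the landraces whose removal ended the calls of MTSHP, NP24-I, XYL2, CAB4 and Fad7. Only 3 arrays per landrace limit every comparison, genes near background have bounds only, and landrace 3815 is 1 accession grown in 1 season.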

Other observations

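The described genes that differed most between replicate 1 of 3815 and its other 2 arrays are given as values, with no test. The cell wall invertase gene lin5 read 5.03 in replicate 1 but 0.22 and 0.79 in replicates 2 and 3. The endoglucanase Cel2 read 8.44, 4.79 and 5.65, the expansin EXP1 read 9.70, 7.0 and 7.53, the ACC oxidase ACO4 read 5.13, 2.12 and 3.08, and the ACC synthase ACS4 read 8.40, 5.53 and 7.03. The chitinase CHI3 read 4.35, 0.75 and 0.52, and the malate dehydrogenase gene mdh read 5.02, 1.95 and 2.34. The opposite order appeared in the alternative oxidase gene AOX1a, at 5.37, 7.84 and 6.97, and in the ethylene response factor gene ERF3, at 2.17, 4.83 and 3.76. These are the extremes among single genes: over the lists, replicate 1 was above both other arrays in 20 and below both in 17 of 52 cell wall genes, and in 23 and 13 of 47 ethylene and ripening genes. What set replicate 1 apart was not tested.

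By chromosome, the share of described genes that passed ran from 0% of 33 genes on chromosome 10 to 16.7% of 54 on chromosome 7, where 3 were higher and 6 lower, against 9.56% of all described genes. No test of position was made. The same contrast, each landrace against the mean of the other 8, called 16 probe sets for 3842, 75 for 571 and 2347 for 557, and these contrasts share all arrays with that of 3815.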
